A study of Mus musculus with 12 samples.

Results

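Cytosolic ribosomal protein genes were followed through all libraries of a transplant study of TCF-1 (encoded by Tcf7). The members were the protein-coding genes whose symbol is Rps or Rpl and a digit, together with Rpsa, Rplp0, Rplp1 and Rplp2, leaving out the Rps6k kinases, Rps3a1, Rps3a2, Rps3a3 and symbols that mark a pseudogene. The rule found 85 of 35855 genes. They comprise 30 core proteins of the small subunit, 43 core proteins of the large subunit, 3 stalk proteins, 8 paralogues of core genes and Rps19bp1, which carries a matching symbol but is no ribosomal subunit. The rule used names and no measured value.

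The libraries were made from sorted spleen CD8 T cells on a C57BL/6 background by SMART-Seq HT. Donors were wild type (WT) or TCF-1 cKO, which carried floxed Tcf7 and CD4cre and so had lost TCF-1 in all T cells from the double-positive stage of thymic development. Each genotype was sampled pre-transplant and at day 7 post-transplant, when donor cells were sorted back from the spleens of lethally irradiated BALB/c recipients. There were 3 libraries in each of the 4 groups, and donors and recipients were matched for age as far as could be done, with no age given per sample. TCF-1 cKO day 7 library 2 carries CD4 in one label and CD8 in its title, and the title was followed here. It held 432 CPM of Cd8a and 1.42 CPM of Cd4.

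The cytosolic ribosome translates nuclear messenger RNA. Its small subunit decodes the message, its large subunit joins amino acids, and a flexible stalk of Rplp0, Rplp1 and Rplp2 recruits the elongation factors. Ribosomal protein messenger RNAs are among the most abundant of the cell, and resting T cells make more ribosomes once they are activated. Many of these messages begin with a cytosine followed by a run of pyrimidines, the 5′ terminal oligopyrimidine tract, through which mTOR controls their translation.

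The start regions of 6 named members are shown because the tract is a sequence feature that the selection rule did not use. Each is 30 bases of RefSeq sequence on GRCm38.p6, from 10 bases before the annotated start to 20 bases after it. Capitals mark the pyrimidine tract, counted only where it begins in the range given below, and the Rplp0 window has none there. The windows of Rpl9, Rpsa, Rpl41 and Rpl11, not shown, have none there either. In the Rplp0 and Rpl11 windows such a run of pyrimidines begins past that range and was not counted. The 6 windows are examples and do not give the share of members with a tract.
Rps6 (chr4:86857348-86857377, minus strand): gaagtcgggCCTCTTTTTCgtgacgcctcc
Rplp2 (chr7:141447641-141447670, plus strand): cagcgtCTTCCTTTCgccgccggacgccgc
Rpl15 (chr14:18270967-18270996, minus strand): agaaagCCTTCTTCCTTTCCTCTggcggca
Rpl13a (chr7:45128726-45128755, minus strand): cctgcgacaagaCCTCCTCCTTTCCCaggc
Rpl38 (chr11:114668570-114668599, plus strand): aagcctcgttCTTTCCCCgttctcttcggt
Rplp0 (chr5:115559457-115559486, plus strand): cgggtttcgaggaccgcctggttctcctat
A cytosine followed by at least 4 pyrimidines, read on the transcribed strand and beginning within -5 to 12 bases of the annotated start, was present at 49.4% of 77 start sites of 65 members, and at 25.4% of all 32851 start sites in the same table. This is a count of letters. No translation was measured in these libraries.

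The pre-transplant libraries held abundant transcripts of other cells, with summed B cell and plasma cell markers (7 of 7 genes) at 12249 to 23897 counts per 1000000 (CPM) against 328 to 509 CPM at day 7, and summed CD8 T cell markers (5 genes) at only 563 to 1234 CPM against 3125 to 5167 CPM. Erythroid markers (5 genes) summed to 4449 to 26434 CPM pre-transplant and 203 to 1193 CPM at day 7, and myeloid markers (7 genes) to 1586 to 3690 CPM and 119 to 502 CPM. CD4 T cell markers (3 genes) summed to 68.9 to 194 CPM pre-transplant and 2.24 to 24.3 CPM at day 7, and Cd4 itself, at 49.5 to 143 CPM pre-transplant, exceeded Cd8a in pre-transplant WT library 2 (132 against 131 CPM) and TCF-1 cKO library 3 (75.2 against 47.7 CPM). Pre-transplant WT library 2 and TCF-1 cKO library 3 stood apart from their groups with 0.648% and 0.567% of counts from mitochondrial genes against 2.33% to 3.25% in the other 4, and WT day 7 library 3 lay closer to the TCF-1 cKO libraries than to the other WT libraries in the summed share of the members. Summed Tcf7 transcripts lay at 115 to 205 CPM in WT pre-transplant libraries, with TCF-1 cKO lower at 56.8 to 97.1 CPM, and at day 7 at 6.89 to 17.2 CPM in WT against 8.99 to 9.48 CPM. These sums are over all transcripts of the gene, deleted part or not, and do not check the deletion. Nothing in the sources used here says whether the libraries of a group came from separate mice, so p-values measure the spread between these samples only. Totals lay between 4520270 and 32657005 estimated counts per library. Pre-transplant they were 4520270 to 9577076 in TCF-1 cKO and 18978963 to 28884454 in WT, so depth differed with genotype at that stage. The part of depth in the comparisons was not tested.

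The share of the library taken by ribosomal protein genes was higher at day 7 than pre-transplant in both genotypes. In WT pre-transplant libraries they held 5.25%, 6.59% and 4.98% of estimated counts, and in WT day 7 libraries 8.51%, 8.26% and 12.4%. In TCF-1 cKO pre-transplant libraries they held 3.12%, 3.43% and 6.47%, and in TCF-1 cKO day 7 libraries 11.8%, 13.0% and 13.2%. Neither pair of stages overlapped, and library 3 was the highest of both the TCF-1 cKO pre-transplant and the WT day 7 group.

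**Figure D1:**
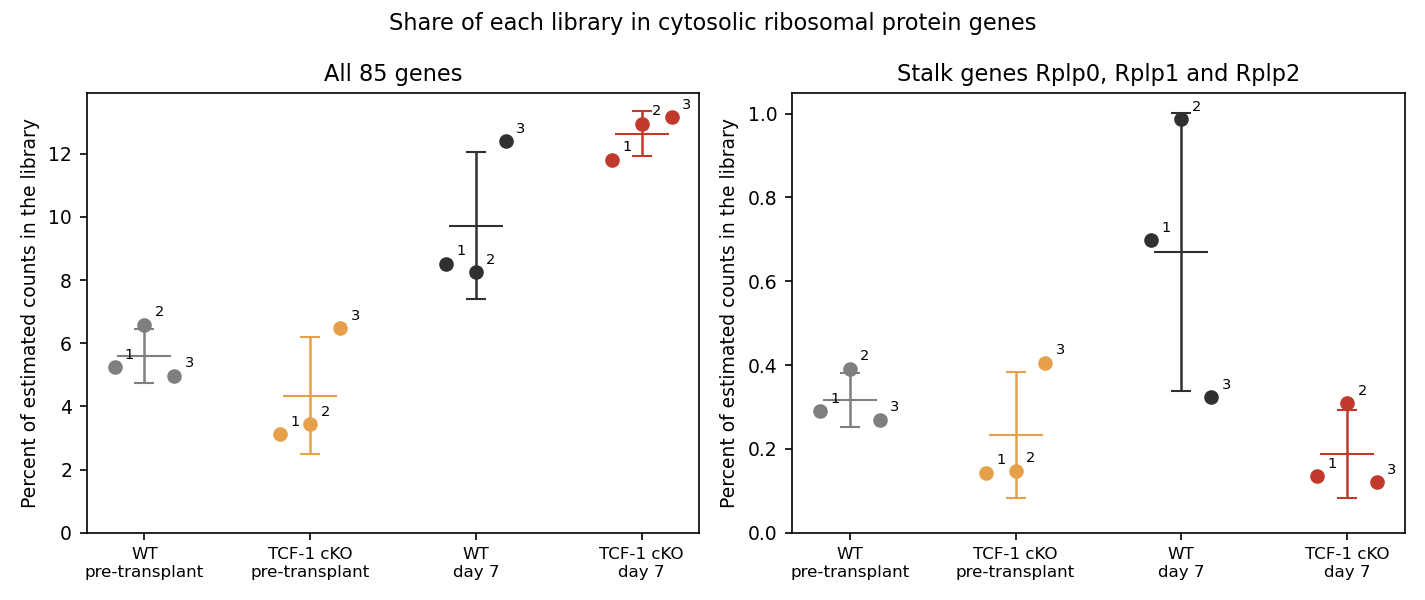
Percent of estimated counts in each library, for all 85 genes (left) and for the 3 stalk genes (right). Points are libraries with their replicate number, and bars are the mean ± SD of 3 libraries. All day 7 libraries lie above the pre-transplant libraries in the left panel, and WT day 7 libraries 1 and 2 lie above every other library in the right panel.

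The mean share went from 5.60% ± 0.862 (SD, n = 3) to 9.72% ± 2.32 in WT, 1.74 times as high (exact permutation test, two-sided p = 0.1, the smallest that 3 libraries against 3 allow). It went from 4.34% ± 1.85 to 12.6% ± 0.723 in TCF-1 cKO, 2.91 times as high (exact permutation p = 0.1). Between genotypes the groups overlapped at each stage, with a ratio of TCF-1 cKO to WT of 0.774 pre-transplant (exact permutation p = 0.3) and 1.30 at day 7 (exact permutation p = 0.2). The genotype difference moved by 4.18 percentage points between stages (exact permutation of genotype within stage, p = 0.06). Without TCF-1 cKO pre-transplant library 3 that exact permutation p was 0.015, without WT day 7 library 3 it was 0.025, and without any of the other 10 libraries it was 0.06 to 0.115.

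The share is a proportion of a mixed sample. In these bulk libraries fewer cells of a type and less RNA per cell cannot be told apart, and the fall of the B cell, erythroid and myeloid markers went the same way as the rise in share. With only nuclear protein-coding genes in the total, and without the B cell, erythroid and myeloid markers, the shares were 1.68 times as high at day 7 in WT and 2.91 times as high in TCF-1 cKO. The part of the other cells' remaining transcripts was not tested.

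Gene by gene, WT day 7 cells were compared with WT pre-transplant cells in edgeR (quasi-likelihood F-test, p-values adjusted over all genes tested, FDR of 0.1). Of 83 members tested, 52 rose and 0 fell, with a median log2 fold change of 1.43 against -0.30 over all 16790 genes tested. Among all genes tested 9.7% rose and 10.3% fell. The counts by role were 18 of 30 small subunit genes, 27 of 43 large subunit genes, 3 of 3 stalk genes and 4 of 6 paralogues tested. One of these paralogues, Rpl39l, had at most 1.00 estimated counts in any WT pre-transplant library. It passed the expression filter only through its day 7 libraries, so it could only come out as a rise. The stages did not overlap in CPM for 27 members that were higher at day 7 and 1 that was lower, against 6.21% and 38.3% of all genes. The other 31 members gave positive log2 fold changes that did not pass the test.

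These fold changes are set by TMM scaling, which assumes that most genes are level, and the scale matters here. Going from TMM scaling to plain library totals shifts the median of all genes by -0.96 in WT and by -1.61 in TCF-1 cKO on the log2 scale, so that a gene of constant CPM takes a log2 fold change near those sizes under TMM. On library totals 19 members rose and 0 fell in WT, where 4.27% of all genes rose and 24.6% fell, and the median over members was 0.46. Rps4x, a small subunit protein encoded on the X chromosome, was at 1042, 763 and 895 CPM pre-transplant and 577, 475 and 673 CPM at day 7, so its CPM was lower in every day 7 library while its TMM log2 fold change was 0.30 (SE 0.41, edgeR adjusted p = 0.68).

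Rps14, a small subunit protein at the decoding platform, showed the smallest p among core genes in WT. It was at 1009, 1447 and 1016 CPM pre-transplant and at 3564, 3931 and 8597 CPM at day 7, a log2 fold change of 3.14 (SE 0.44, edgeR adjusted p = 0.0023). All day 7 libraries were higher than all pre-transplant libraries, and library 3 was far above the other WT day 7 libraries. Rpl13a, which is also known as a component of the GAIT translational repressor, went from 578, 726 and 525 CPM to 1661, 1692 and 3547 CPM, a log2 fold change of 2.84 (SE 0.43, edgeR adjusted p = 0.0030).

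Rpl41, the shortest ribosomal protein, was at 978, 1843 and 979 CPM pre-transplant and 3144, 3497 and 7359 CPM at day 7. Its log2 fold change was 2.83 (SE 0.45, edgeR adjusted p = 0.0037), and the stages did not overlap. Rpl39, a small protein lining the peptide exit tunnel, was at 226, 154 and 189 CPM and then at 627, 531 and 1402 CPM, a log2 fold change of 3.05 (SE 0.49, edgeR adjusted p = 0.0039). Rps14, Rpl13a, Rpl41 and Rpl39 were called in all 6 fits that left out 1 library, and on library totals their log2 fold changes were 2.21, 1.91, 1.88 and 2.17 (edgeR adjusted p = 0.0081, 0.014, 0.019 and 0.012).

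The count in WT depended on which libraries entered. Without WT pre-transplant library 1, 2 or 3 it was 20, 29 and 19, where 4.38%, 5.09% and 3.68% of all genes rose, so the calls over all genes dropped as well. Without WT day 7 library 1, 2 or 3 it was 43, 64 and 59, where 6.58%, 10.3% and 13.4% of all genes rose. Without both WT pre-transplant library 2 and WT day 7 library 3, an alternative added after the data were seen, 49 rose and 1 fell, against 12.1% and 10.3% of all genes.

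In TCF-1 cKO cells 76 of 83 members rose from pre-transplant to day 7 and 0 fell, with a median log2 fold change of 3.16 against -0.29 over all 18535 genes tested, of which 19.7% rose and 16.8% fell. The rise took in 28 of 30 small subunit genes, 41 of 43 large subunit genes, 6 of 6 paralogues tested and 1 of 3 stalk genes. On library totals 61 members rose and 1 fell, where 8.96% of all genes rose and 57.2% fell, and the median over members was 1.62. In CPM the stages did not overlap for 63 members that were higher at day 7 and 1 that was lower, against 10.2% and 54.4% of all genes. The count of members that rose stayed between 71 and 81 when 1 library was left out.

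Rps27a encodes a ubiquitin and small subunit fusion protein. It was at 324, 401 and 297 CPM pre-transplant and at 2280, 2339 and 3115 CPM at day 7, a log2 fold change of 4.51 (SE 0.38, edgeR adjusted p = 0.00011). Rps7, a small subunit protein known to bind the p53 regulator Mdm2, was at 320, 384 and 313 CPM and then at 2684, 2468 and 3348 CPM, a log2 fold change of 4.64 (SE 0.39, edgeR adjusted p = 0.00011). For both genes every day 7 library lay far above every pre-transplant library.

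Rpl15, a large subunit protein, was at 354, 353 and 318 CPM pre-transplant and 1856, 2022 and 2251 CPM at day 7 (log2 fold change 4.15, SE 0.36, edgeR adjusted p = 0.00012). Rpl11, which with Rpl5 and 5S RNA forms a particle that restrains Mdm2, was at 150, 173 and 272 CPM and then at 1076, 1029 and 1285 CPM (log2 fold change 4.01, SE 0.48, edgeR adjusted p = 0.00034). Neither gene overlapped between stages.

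The 7 members that did not pass were Rpl8, Rplp0, Rplp1, Rpl37a, Rps28, Rps29 and Rps19bp1. Rpl8, a large subunit protein near the peptidyl transferase centre, was the 1 member with a negative value, -0.42 (SE 0.54, edgeR adjusted p = 0.59). Its CPM was 449, 403 and 1095 pre-transplant and 145, 245 and 148 at day 7, so all day 7 libraries were lower, and on library totals it fell by 1.87 on the log2 scale (edgeR adjusted p = 0.0057).

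**Figure D2:**
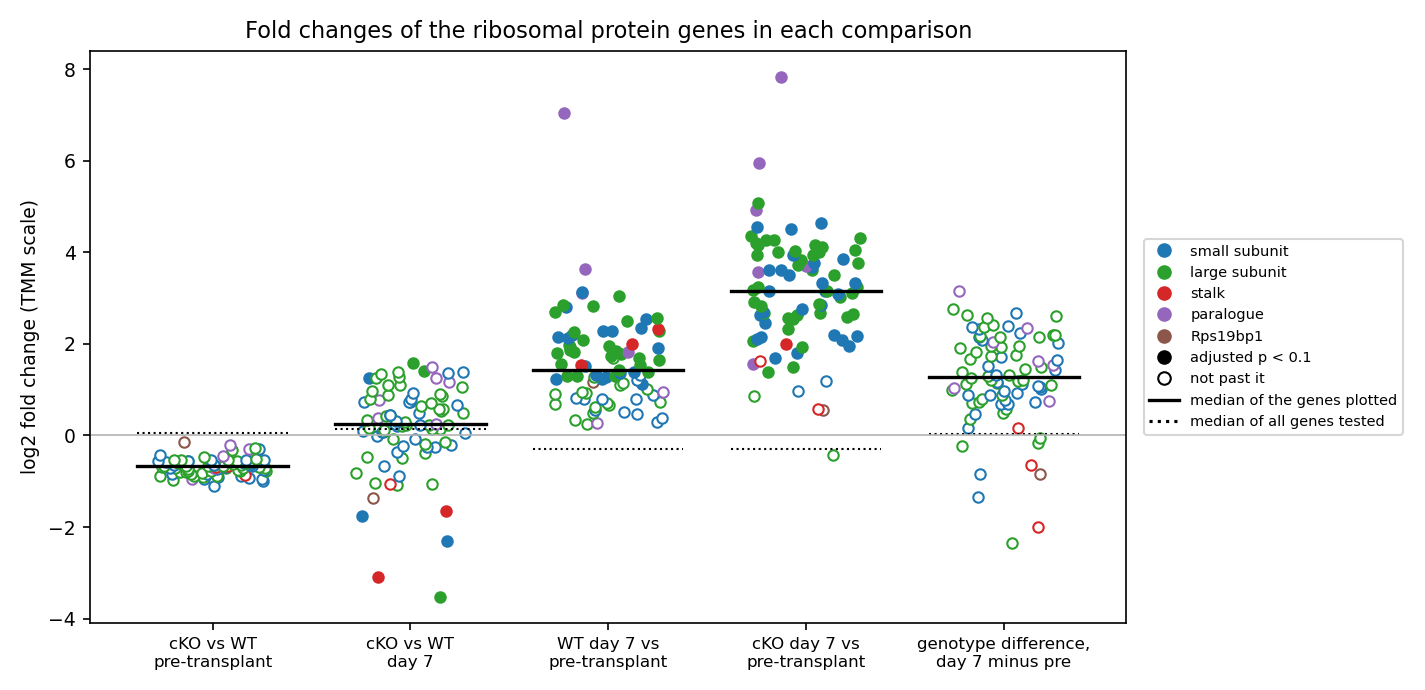
log2 fold changes on the TMM scale for each member tested in each comparison, coloured by role. Filled points pass an adjusted p of 0.1, solid lines are medians of the members and dotted lines are medians of all genes tested. Medians of the members are -0.67, 0.25, 1.43, 3.16 and 1.27 from left to right, and the right column has no filled point. The highest points of both stage comparisons are Rpl39l, whose fitted value depends on the prior count.

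Within the family the rise was uneven. When each library was scaled to the summed counts of the members, 7 members were higher and 13 lower in WT at day 7, and 20 were higher and 18 lower in TCF-1 cKO, among 2.47% and 53.3% of all genes in WT and 1.91% and 82.6% in TCF-1 cKO. On that scale Rps14 rose in both genotypes (1.37 in WT and 1.603 in TCF-1 cKO on the log2 scale), and so did Rps27l (1.86 and 2.60). The 2 stage comparisons use different libraries.

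Between TCF-1 cKO and WT cells at day 7, 8 of 83 members tested were called. Rpl7, Rpl9 and Rps6 were higher in TCF-1 cKO and Rpl8, Rplp0, Rps2, Rpsa and Rplp1 were lower. Over all 16026 genes tested 2.51% were higher and 15.4% lower. Members were thus called lower less often than genes at large, and higher at a share near theirs. In CPM the genotypes did not overlap for 40 members higher and 6 lower in TCF-1 cKO, against 27.1% and 15.7% of all genes. The median log2 fold change was 0.25 over members and 0.15 over all genes. Library totals shift the median of all genes by 0.42 at this stage, and with them 4 members were higher and 3 lower, against 3.09% and 10.8% of all genes. Other measures moved with genotype at day 7. Mitochondrial genes held 2.70%, 1.08% and 4.601% of counts in WT and 8.15%, 4.68% and 6.55% in TCF-1 cKO, and summed CD8 T cell markers were 3125 to 3545 CPM in WT and 4314 to 5167 CPM in TCF-1 cKO, neither with overlap. The single CD8 T cell markers did not move together. Cd3d and Cd3g were higher in TCF-1 cKO, while Cd3e was lower, at 200 to 797 CPM in WT and 102 to 119 CPM in TCF-1 cKO. Cd8a and Cd8b1 overlapped between genotypes. The part of these measures in the differences of the members was not tested.

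Rpl8 was at 1579, 2061 and 391.7 CPM in WT and at 145, 245 and 148 CPM in TCF-1 cKO. The groups did not overlap, and WT library 3 was much closer to TCF-1 cKO than to the other WT libraries. The log2 fold change was -3.52 (SE 0.76, edgeR adjusted p = 0.045). Rplp0, the stalk base, was at 5133, 7450 and 1523 CPM in WT and 600, 1387 and 539 CPM in TCF-1 cKO, a log2 fold change of -3.09 (SE 0.77, edgeR adjusted p = 0.046).

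Rps2, a small subunit protein at the messenger RNA entry channel, was at 6499, 7808 and 3564 CPM in WT and 1373, 2753 and 1198 CPM in TCF-1 cKO (log2 fold change -2.30, SE 0.56, edgeR adjusted p = 0.046). Rpsa, a small subunit protein also known as the laminin receptor, was at 7283, 8658 and 5837 CPM in WT and 1966, 5333 and 1901 CPM in TCF-1 cKO (log2 fold change -1.75, SE 0.54, edgeR adjusted p = 0.077). Rplp1, a stalk protein, was at 1315, 1703 and 1165 CPM in WT and 407, 1087 and 396 CPM in TCF-1 cKO (log2 fold change -1.65, SE 0.56, edgeR adjusted p = 0.097). For Rpsa and Rplp1, TCF-1 cKO library 2 lay just under the lowest WT library. Rplp2, the partner of Rplp1, overlapped between genotypes and did not pass, at -1.06 (SE 0.49, edgeR adjusted p = 0.20).

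Rpl7, a large subunit protein that binds RNA, was at 853, 411 and 2329 CPM in WT and 4205, 3460 and 5305 CPM in TCF-1 cKO. Its log2 fold change was 1.58 (SE 0.48, edgeR adjusted p = 0.074). Rpl9, a large subunit protein near the base of the stalk, was at 537, 255 and 1174 CPM in WT and 2138, 1742 and 2556 CPM in TCF-1 cKO (log2 fold change 1.41, SE 0.44, edgeR adjusted p = 0.081). Rps6, the small subunit protein phosphorylated by S6 kinase downstream of mTOR, was at 722, 312 and 1081 CPM in WT and 2201, 1812 and 2363 CPM in TCF-1 cKO (log2 fold change 1.25, SE 0.39, edgeR adjusted p = 0.080). In all 3 genes WT library 3 was the WT library nearest to TCF-1 cKO.

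**Figure D3:**
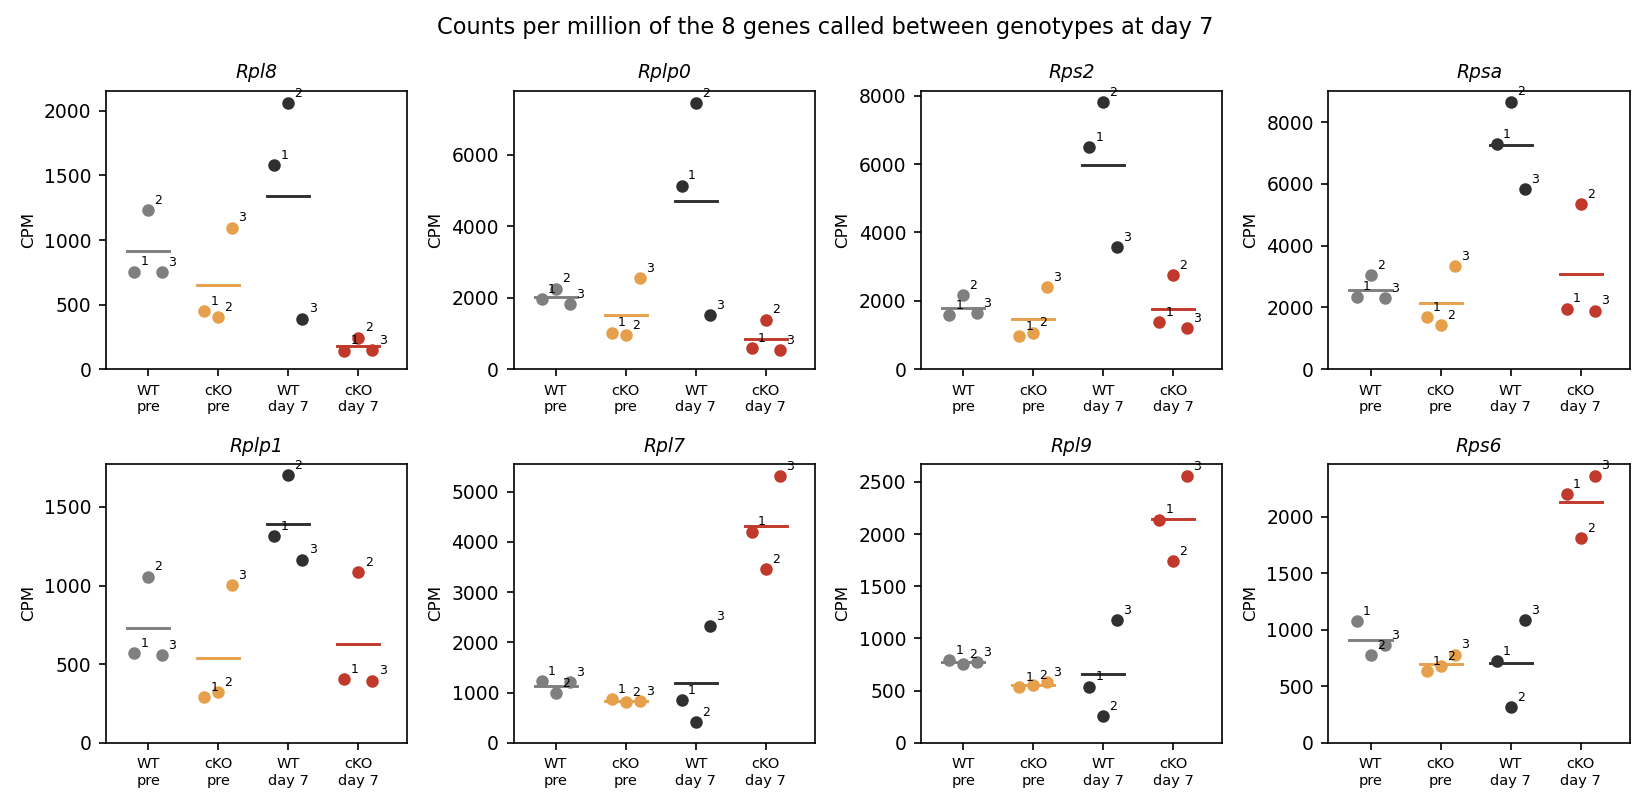
Counts per 1000000 of library total in every library for the 8 members called between genotypes at day 7. Points carry the replicate number and lines are means of 3 libraries. WT day 7 library 3 lies between the other WT day 7 libraries and the TCF-1 cKO day 7 libraries for all 8 members.

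None of these 8 calls held when WT day 7 library 1 or 2 or any TCF-1 cKO day 7 library was left out, which gave 0 higher and 0 lower each time. In those 5 fits 0 to 2 genes of all those tested were called, so the loss was not particular to the members, and without TCF-1 cKO day 7 library 2, for example, Rpl8 stood at -3.88 and Rpl7 at 1.67. All 8 held without WT day 7 library 3, where 26 members were higher and 11 lower among 9.72% and 19.4% of all genes. Their direction was the same in all 6 of these fits.

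The genotype difference at day 7 followed the base composition of the transcripts. Over the 83 members tested, the log2 fold change correlated with transcript GC content at -0.63 (Spearman), and over all 16026 genes tested at -0.55. These points share the same libraries and are a description without a test. In the 28 members of lowest GC content (40.52% to 49.26%) the median log2 fold change was 0.83 and 26 were positive, and in the 28 of highest GC content (53.56% to 60.84%) it was -0.04 and 13 were positive. The 5 lower members have a GC content of 53.45% to 57.87%, while Rpl7 has 45.28%, Rpl9 47.55% and Rps6 52.45%.

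In the pairs of libraries compared within a group, the members also differed along GC content. Not every pair was compared, and the sign of each value below follows the order in which its ratio was taken. The log2 ratio of WT day 7 library 2 to WT day 7 library 3 correlated with GC content over these members at 0.57 (Spearman, as are the next values), the ratio of WT day 7 library 1 to library 3 at 0.33, the ratio of TCF-1 cKO day 7 library 2 to library 1 at 0.49, the ratio of TCF-1 cKO pre-transplant library 3 to library 1 at 0.69 and the ratio of WT pre-transplant library 2 to library 1 at 0.66. WT day 7 library 2 held Rpl8 and Rplp0 above library 3 and Rpl7 and Rpl9 below it, the same split as between genotypes. Whether the 2 splits have a common source was not tested.

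**Figure D4:**
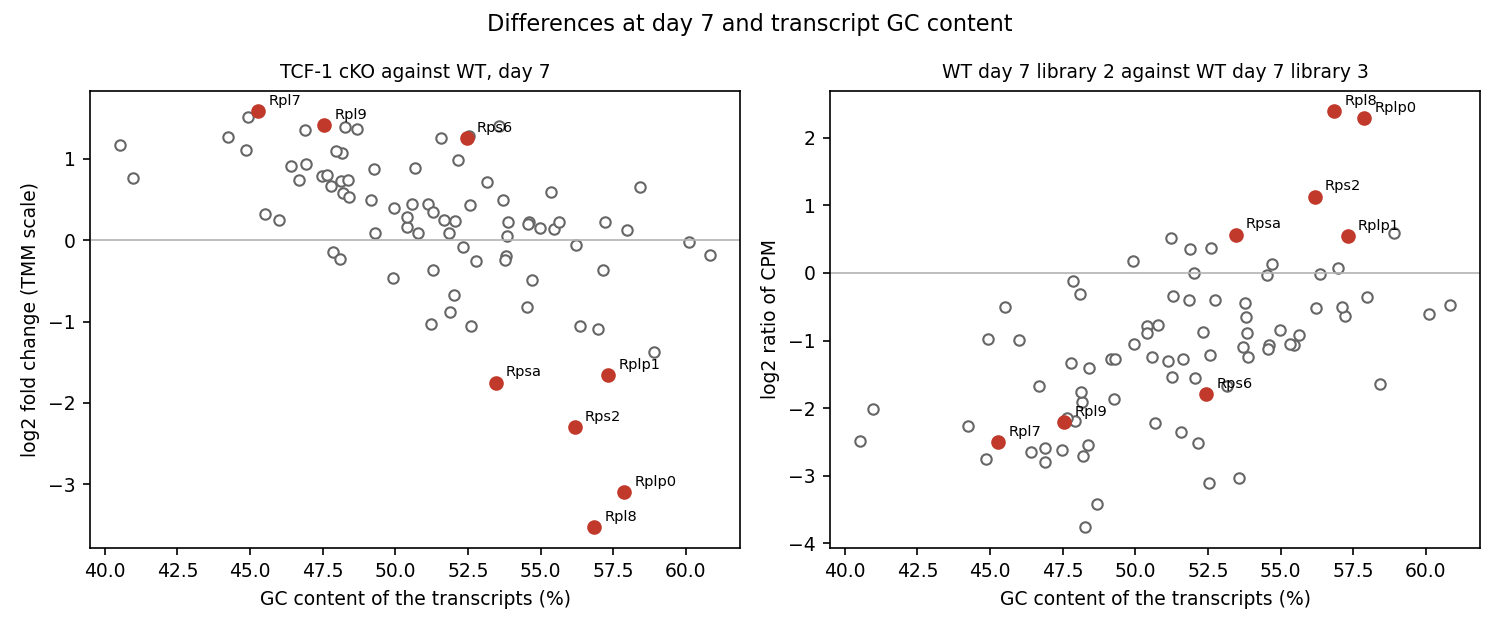
Transcript GC content (percent) of 83 members against the log2 fold change of TCF-1 cKO over WT at day 7 (left) and against the log2 ratio of 2 libraries of the same group, WT day 7 library 2 over library 3 (right). Filled points are the 8 members called at day 7. The Spearman correlation is -0.63 on the left and 0.57 on the right.

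With an offset for GC content and length in each library, 3 members (Rps6, Rpl27a and Rpl29) were higher and 1 (Rpl8) lower among 1.04% and 4.14% of all genes. Rpl8 was at -1.65 (edgeR adjusted p = 0.094) and Rps6 at 1.66 (edgeR adjusted p = 0.092), while Rplp0 was at -1.04 (edgeR adjusted p = 0.21), Rpsa at -0.95 (edgeR adjusted p = 0.21), Rps2 at -0.78 (edgeR adjusted p = 0.23), Rplp1 at -0.39 (edgeR adjusted p = 0.61), Rpl7 at 1.00 (edgeR adjusted p = 0.14) and Rpl9 at 0.99 (edgeR adjusted p = 0.13). Rpl8 and Rps6 passed with and without the offset, both close to the threshold with it, and the other 6 did not. The offset is a loess curve with 1 choice of span, and other choices were not tried.

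Pre-transplant, none of 82 members tested passed at an FDR of 0.1, and all 82 log2 fold changes of TCF-1 cKO against WT were negative, with a median of -0.67 against 0.05 over all 18757 genes. Among all genes 0.016% were called higher and 0.0213% lower. An unadjusted p under 0.05 was reached by 8 of 82 members and by 17.7% of all genes. DESeq2 called 0 members, where it called 4.9% of all genes higher and 2.84% lower, and limma-voom called 0 members, where it called 1 gene in each direction. Library totals shift the median of all genes by 0.33 here, and with them 4 of the 82 were positive.

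Rps7 had the smallest p of this comparison. It was at 652, 388 and 661 CPM in WT and 320, 384 and 313 CPM in TCF-1 cKO, with a log2 fold change of -1.10 (SE 0.42, edgeR adjusted p = 0.24). Rps27a stood at -0.99 (SE 0.40, edgeR adjusted p = 0.25), from 596, 439 and 550 CPM in WT and 324, 401 and 297 CPM in TCF-1 cKO. Rpl14, a large subunit protein, stood at -0.97 (SE 0.40, edgeR adjusted p = 0.26), from 922, 708 and 882 CPM in WT and 508, 554 and 561 CPM in TCF-1 cKO. The groups did not overlap for these 3 genes, nor for 16 members in all, each lower in TCF-1 cKO, against 6.37% of all genes tested, while 0 members and 21.5% of all genes were higher without overlap.

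The result turned on TCF-1 cKO library 3. Without it 69 of 83 members were lower and 0 higher, with a median of -1.30, where 8.91% of all genes were lower and 3.79% higher. Without both this library and WT library 2, 74 of 83 were lower and 0 higher, where 16.9% of all genes were lower and 16.6% higher. This alternative was added after the data were seen. Both libraries were the ones with a low mitochondrial share, and their part in the result beyond these values was not tested. Summed CD8 T cell markers reached 1166 to 1234 CPM in WT but 563 to 613 CPM in TCF-1 cKO, so the 2 genotypes also differed in the share of T cell transcripts at this stage.

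The change of the genotype difference from pre-transplant to day 7 was tested as an interaction term in a fit of the 12 libraries. None of 84 members passed, in either direction, among 0% of all genes higher and 0.00465% lower, and an unadjusted p under 0.05 was reached by 36 members and by 15.7% of all genes. The median was 1.27 against 0.04 over all genes, and 75 of 84 values were positive. Rpl9 stood at 2.62 (SE 0.68), Rpl7 at 2.76 (SE 0.73) and Rps6 at 2.39 (SE 0.65), each with an edgeR adjusted p of 0.23. At the other end Rpl8 stood at -2.35 (SE 0.92, edgeR adjusted p = 0.27) and Rplp0 at -2.002 (SE 0.94, edgeR adjusted p = 0.32). The interaction values correlated with transcript GC content at -0.60 (Spearman) over the 84 members and at -0.23 over all 21526 genes tested. With the GC and length offset Rpl8 was at -1.24 and Rplp0 at -0.72, while Rpl9 was at 2.10, Rpl7 at 2.19 and Rps6 at 2.47. With it 0 members passed. The part of GC content in this split was not tested. DESeq2 called 27 members higher and 1 lower, where it called 4.59% and 3.37% of all genes, and without WT day 7 library 3 edgeR called 29 higher and 1 lower, where 5.48% and 3.25% of all genes were called. In both, Rpl8 was the lower member. The stage and genotype comparisons share libraries, so their values are set side by side and are not independent.

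By role, the summed shares of the stalk and of the large subunit differed in direction between genotypes at day 7. Stalk genes held 0.699%, 0.987% and 0.324% of counts in WT day 7 libraries and 0.135%, 0.309% and 0.120% in TCF-1 cKO day 7 libraries. The groups did not overlap (exact permutation p = 0.1), although WT library 3 and TCF-1 cKO library 2 were nearly level. Pre-transplant values were 0.270% to 0.392% in WT and 0.144% to 0.406% in TCF-1 cKO, and overlapped. Rplp0 held the largest part of the stalk counts in every day 7 library, and Rplp2 did not pass between genotypes. With the GC and length offset no stalk gene passed at day 7. Rplp0 was at -1.04, Rplp1 at -0.39 and Rplp2 at -0.91 (edgeR adjusted p = 0.21, 0.61 and 0.21).

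Large subunit genes held 3.67%, 3.28% and 6.06% of counts in WT at day 7 and 6.27%, 6.52% and 7.04% in TCF-1 cKO, without overlap (exact permutation p = 0.1). Small subunit genes held 4.08%, 3.96% and 5.87% in WT and 5.23%, 5.93% and 5.77% in TCF-1 cKO, and overlapped (exact permutation p = 0.3). The ratio of large to small subunit counts was 0.921 ± 0.103 (SD, n = 3) in WT and 1.17 ± 0.0639 in TCF-1 cKO at day 7, and 1.12 ± 0.0300 and 1.08 ± 0.0324 pre-transplant. On TPM the direction in WT turned, from 1.06 ± 0.0162 pre-transplant to 1.10 ± 0.0526 at day 7 (SD, n = 3), which overlapped, while TCF-1 cKO went from 1.07 ± 0.0393 to 1.21 ± 0.0336.

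Paralogues of core genes were among the members with the largest rise. Rps27l, a paralogue of Rps27 known as a p53 target, was at 57.1, 42.1 and 42.3 CPM in WT pre-transplant and 260, 110 and 620 CPM at day 7 (log2 fold change 3.64, SE 0.61, edgeR adjusted p = 0.0046). In TCF-1 cKO it went from 44.4, 54.8 and 32.9 CPM to 812, 861 and 1024 CPM (log2 fold change 5.96, SE 0.39, edgeR adjusted p = 0.00010). At day 7 TCF-1 cKO libraries all lay above WT, but the difference did not pass, at 1.17 (SE 0.49, edgeR adjusted p = 0.16).

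The coding sequences of Rps27 and its paralogues are printed because reads are assigned by their letters. The first 60 coding bases are given from the GENCODE M21 transcripts (GRCm38), with the gene coordinates, and capitals mark bases that differ from Rps27.
Rps27 (chr3:90212522-90213651, minus strand): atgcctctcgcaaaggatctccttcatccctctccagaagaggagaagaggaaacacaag
Rps27rt (chr9:114982366-114982739, minus strand): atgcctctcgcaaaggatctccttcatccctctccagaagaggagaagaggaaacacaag
Rps27l (chr9:66946086-66949516, plus strand): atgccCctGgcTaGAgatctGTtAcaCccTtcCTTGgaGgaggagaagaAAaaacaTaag
Over the 255 coding bases Rps27rt had 0 differences from Rps27 and Rps27l had 61. Rps27rt was reported at 9.80 to 72.7 CPM over the 12 libraries, and these reads cannot be assigned with certainty between it and Rps27, which was at 479 to 2559 CPM.

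Per length, Rps27l took 2.36% ± 0.891 (SD, n = 3) of the summed TPM of Rps27 and Rps27l in WT pre-transplant libraries and 10.01% ± 3.55 at day 7. In TCF-1 cKO it took 3.56% ± 1.97 pre-transplant and 17.7% ± 0.370 at day 7. The stages did not overlap in either genotype, and neither did the genotypes at day 7 (exact permutation p = 0.1 each). Rps27l has the lowest GC content of the members tested, 40.52%. With the GC and length offset its genotype difference at day 7 was 0.03 (edgeR adjusted p = 0.97) and that of Rps27 was 0.10 (edgeR adjusted p = 0.88).

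Rpl22l1, a paralogue of Rpl22, was at 46.7, 15.2 and 33.9 CPM in WT pre-transplant and 136, 65.8 and 267 CPM at day 7 (log2 fold change 3.12, SE 0.65, edgeR adjusted p = 0.012). In TCF-1 cKO it went from 33.9, 58.9 and 12.3 CPM to 250, 302 and 439 CPM (log2 fold change 4.92, SE 0.54, edgeR adjusted p = 0.00025). Its share of the TPM of the pair was 18.9% ± 5.12 and 34.9% ± 6.68 in WT, and 24.1% ± 11.1 and 34.6% ± 2.63 in TCF-1 cKO, pre-transplant and at day 7 (exact permutation p = 0.1 for each stage comparison, n = 3). In TCF-1 cKO the stages were barely apart, at 29.36%, 31.53% and 11.32% pre-transplant and 31.56%, 35.99% and 36.22% at day 7. Library 3 was the low one pre-transplant. Between genotypes at day 7 this share overlapped (exact permutation p = 1).

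Rpl39l, a paralogue of Rpl39 best known from testis, was at or under 3 counts in every pre-transplant library, which is a floor of 0.159 CPM or less in WT and 0.667 CPM or less in TCF-1 cKO. At day 7 it was at 3.59, 1.10 and 2.65 CPM in WT and 12.5, 6.70 and 8.49 CPM in TCF-1 cKO. Against the highest floor of a pre-transplant library in the group its mean was at least 15.4-fold higher in WT, and for TCF-1 cKO it was higher by at least 13.8-fold. It remained under 1% of the TPM of the pair, at 0.329% ± 0.195 (SD, n = 3) in WT and 0.604% ± 0.249 in TCF-1 cKO. The first coding bases of Rpl39 and Rpl39l, with differences in capitals, show how close the pair is.
Rpl39 (chrX:37082520-37085402, minus strand): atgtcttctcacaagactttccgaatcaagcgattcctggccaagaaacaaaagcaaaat
Rpl39l (chr16:10170226-10174911, plus strand): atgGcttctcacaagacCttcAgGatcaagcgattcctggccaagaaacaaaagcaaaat
The 156 coding bases differ at 23 positions.

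**Figure D5:**
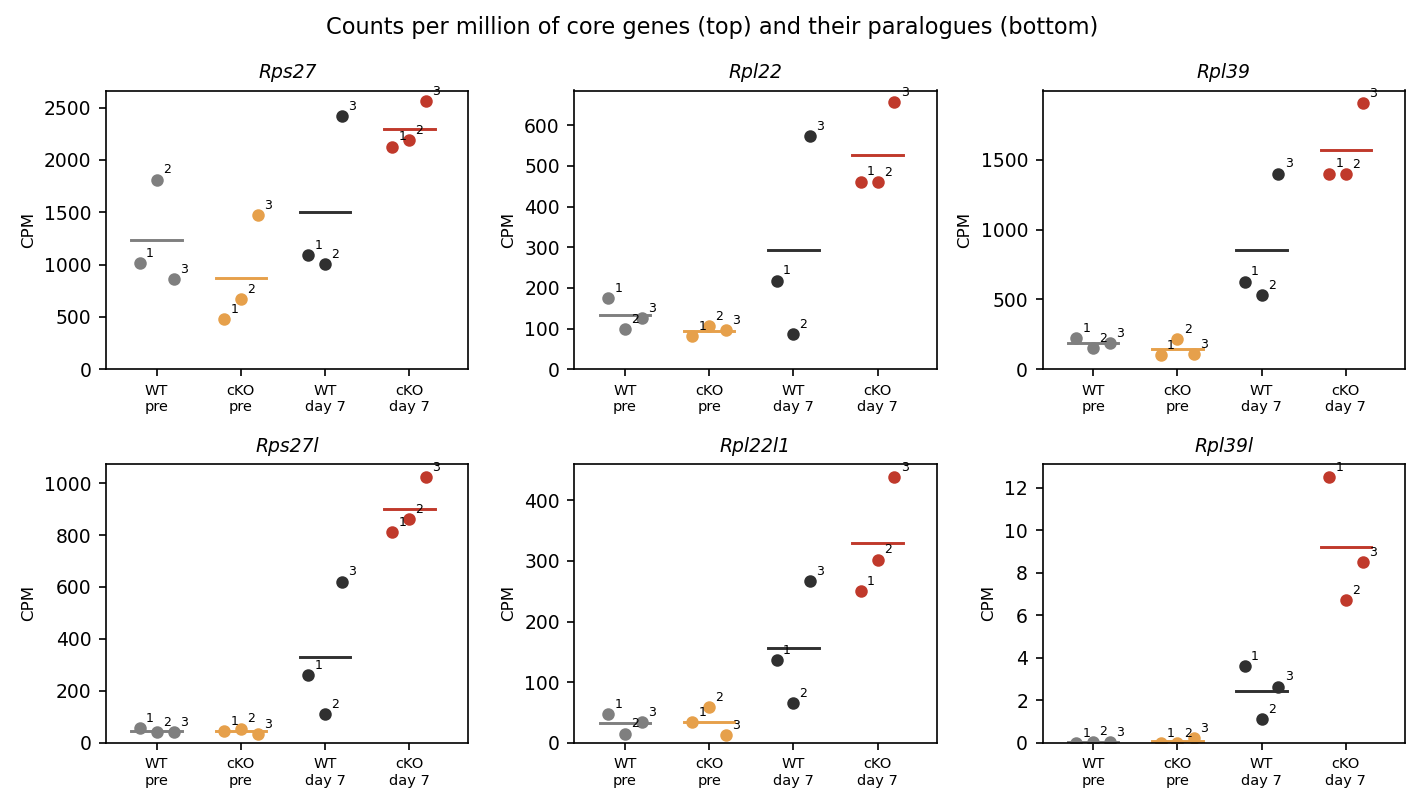
Counts per 1000000 in every library for 3 core genes (top) and their paralogues (bottom). Points carry the replicate number and lines are means of 3 libraries. All TCF-1 cKO day 7 libraries of Rps27l, Rpl22l1 and Rpl39l lie above all pre-transplant libraries.

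Other paralogues behaved differently. Rpl7l1, a paralogue of Rpl7, was at 89.6 to 140 CPM in WT and 103 to 150 CPM in TCF-1 cKO pre-transplant, and at day 7 at 51.1 to 107 CPM and 126 to 141 CPM. It rose in TCF-1 cKO on the TMM scale (1.56, SE 0.37, edgeR adjusted p = 0.012) and did not pass in WT (0.27, SE 0.48, edgeR adjusted p = 0.76), while its CPM overlapped between stages in both. Rpl36al, a paralogue of Rpl36a, rose in TCF-1 cKO from 106, 121 and 150 CPM to 459, 544 and 552 CPM (3.57, SE 0.40, edgeR adjusted p = 0.00027). On library totals it was at 2.04 in TCF-1 cKO and 0.08 in WT (edgeR adjusted p = 0.00085 and 0.93). Its share of the TPM of the pair was lower at day 7, from 46.5% ± 10.7 to 32.4% ± 2.71 in WT and from 49.1% ± 3.04 to 37.3% ± 4.09 in TCF-1 cKO. The stages did not overlap in either genotype (exact permutation p = 0.1 each). Rpl3l and Rpl10l, known from muscle and testis, stayed under 3 CPM in every library.

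Sequence copies limit the values of single members. Of the 85 members, 69 have at least 1 other gene in which 50% or more of the 31-base words also occur in that member, and 304 such copies were found, of which 10 are annotated as protein-coding. The median member shared 24.3% of its words with another gene. In 4 members more than 50% of the counts of the member and its copies together went to copies. Pooling each member with its copies left the counts of calls at 0 and 0 pre-transplant, 3 and 5 at day 7, 52 and 0 in WT and 76 and 0 in TCF-1 cKO. In those fits 2.52% of all genes were higher and 15.5% lower at day 7, and 9.77% rose in WT and 19.7% in TCF-1 cKO.

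Rpl5, which binds 5S RNA, was the strongest case. It was reported at 14.9 to 27.6 CPM in pre-transplant libraries, while Gm15500, a transcribed processed pseudogene at chr7:114705217-114706235 on the minus strand, was at 451 to 982 CPM. Together 97.3% of the counts of Rpl5 and its 5 copies went to copies. The first 60 coding bases of both are printed because they are identical.
Rpl5 (chr5:107900502-107909005, plus strand): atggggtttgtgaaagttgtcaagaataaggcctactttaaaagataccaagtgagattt
Gm15500 (chr7:114705217-114706235, minus strand): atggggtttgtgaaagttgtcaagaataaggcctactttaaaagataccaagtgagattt
All 894 coding bases agree, with 0 differences. The Rpl5 transcript compared has 2045 bases and the Gm15500 transcript has 894.

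At day 7 Rpl5 was at 17.5, 5.92 and 30.3 CPM in WT and 50.9, 43.2 and 65.5 CPM in TCF-1 cKO, and Gm15500 at 669, 158 and 1338 CPM and 2160, 1619 and 2284 CPM. Pooled with its copies, Rpl5 rose in TCF-1 cKO from pre-transplant to day 7 by 3.49 (edgeR adjusted p = 0.00020) and did not pass in WT (0.66, edgeR adjusted p = 0.53) or between genotypes at day 7 (1.22, edgeR adjusted p = 0.19). Rpl12, a large subunit protein at the stalk base, named here after its values were seen, was in a like position, at 22.4 to 72.7 CPM over the 12 libraries with its copy Gm10275 at 328 to 1040 CPM.

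Levels per length were given in TPM. Rpl41, among the highest members, was at 3924 ± 1029 (SD, n = 3) TPM in WT and 2821 ± 1584 TPM in TCF-1 cKO pre-transplant, and at 12389 ± 4422 TPM in WT and 15974 ± 1019 TPM in TCF-1 cKO at day 7. Rps14 was at 3064 ± 258 and 2215 ± 1015 TPM and then at 12069 ± 4542 and 15425 ± 1214 TPM, in the same order of groups. At day 7 the means of Rpl41 and Rps14 differed by less than the spread between libraries in both genotypes.

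Rps27 was at 7327 ± 1627 and 4706 ± 2074 TPM pre-transplant and 7992 ± 3034 and 10707 ± 959 TPM at day 7. Rpl36 was at 3361 ± 671 and 2343 ± 1542 TPM, and at 5587 ± 819 and 5642 ± 328 TPM at day 7. Rpsa moved from rank 6 in WT at day 7, at 6518 ± 1856 TPM, to rank 35 in TCF-1 cKO, at 2282 ± 1467 TPM.

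Members fixed by role gave the following stage values. Rps19, which is mutated in Diamond-Blackfan anaemia, did not pass in WT (0.80, SE 0.40, edgeR adjusted p = 0.23) and rose in TCF-1 cKO (1.80, SE 0.55, edgeR adjusted p = 0.036), from 899, 1036 and 2593 CPM to 1882, 2125 and 1786 CPM, which overlapped. Rps26, another such gene, rose in both on the TMM scale (1.39, SE 0.45, edgeR adjusted p = 0.068 in WT and 3.09, SE 0.57, edgeR adjusted p = 0.0035 in TCF-1 cKO). Rpl10 and Rpl38, which have roles in ribosome export and in selective translation, rose on that scale in WT (1.43, SE 0.42 and 2.57, SE 0.46, edgeR adjusted p = 0.047 and 0.0063) and in TCF-1 cKO (2.68, SE 0.44 and 3.73, SE 0.67, edgeR adjusted p = 0.0020 and 0.0029). On library totals Rps26 and Rpl10 did not pass in WT (0.44 and 0.45, edgeR adjusted p = 0.52 and 0.42). Rps19 did not pass in TCF-1 cKO (0.35, edgeR adjusted p = 0.49). Rpl38 passed in WT (1.61, edgeR adjusted p = 0.036), and Rps26, Rpl10 and Rpl38 passed in TCF-1 cKO. None of these 4 passed between genotypes at either stage.

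Genes around the ribosome were described by lists of known roles, chosen with earlier results of these data known. Among 16 translation factors whose messages carry a pyrimidine tract, 5 rose and 0 fell in WT and 13 rose and 0 fell in TCF-1 cKO. Among 26 initiation and termination factors, 6 rose in WT and 20 rose in TCF-1 cKO, with 0 falling in either. Among 78 mitochondrial ribosomal proteins, which build the separate ribosome of that organelle, 40 rose in WT and 61 in TCF-1 cKO, with 0 falling. Over all genes 9.7% rose and 10.3% fell in WT, and 19.7% rose and 16.8% fell in TCF-1 cKO. The mitochondrial ribosomal proteins held 0.394% to 0.420% of WT and 0.367% to 0.438% of TCF-1 cKO pre-transplant libraries, and 0.708% to 0.964% of WT and 0.982% to 1.09% of TCF-1 cKO day 7 libraries.

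Of 14 genes of mTOR and Myc control, 0 rose and 1 fell in WT, and 2 rose and 5 fell in TCF-1 cKO. Myc, a transcriptional activator of ribosome production, fell in TCF-1 cKO from pre-transplant to day 7 by 2.44 on the log2 scale (SE 0.57, edgeR adjusted p = 0.011) and was not called in WT (-1.40, SE 0.63, edgeR adjusted p = 0.18). Of 17 chaperones and quality control genes of ribosomal proteins, 1 rose and 1 fell in WT and 6 rose and 1 fell in TCF-1 cKO.

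Between genotypes at day 7 some of these lists held calls in both directions and others held only lower calls. Of the 16 translation factors 2 were higher and 2 lower in TCF-1 cKO. Eef2, the elongation factor that moves the ribosome along the message, was at 3786, 5373 and 857 CPM in WT and 434, 250 and 352 CPM in TCF-1 cKO (log2 fold change -3.92, SE 0.78, edgeR adjusted p = 0.045). Naca, a chaperone at the peptide exit, was at 147, 51.0 and 284 CPM in WT and 588, 534 and 673 CPM in TCF-1 cKO (log2 fold change 1.61, SE 0.50, edgeR adjusted p = 0.078). WT library 3 again lay nearest to TCF-1 cKO for both. Of the 26 initiation and termination factors 1 was higher and 5 lower, of the 14 genes of mTOR and Myc control 0 and 5, and of the 78 mitochondrial ribosomal proteins 0 and 10. Over all genes 2.51% were higher and 15.4% lower. The shares that were lower among translation factors, initiation and termination factors and mitochondrial ribosomal proteins lay near that of all genes. Pre-transplant 0 genes of any of these lists passed.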

How the data were processed

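RNA-seq libraries from 12 samples of sorted CD8 T cells were sequenced as read pairs after SMART-Seq HT and Nextera XT preparation. The authors quantified transcripts with kallisto 0.46.2 and deposited estimated counts and TPM per transcript, per the labels. The submitters' processing notes also name mm9 and limma, while 116374 of 117497 transcripts matched GENCODE M21 (99.53% to 99.74% of counts per library), which supplied gene names and GRCm38 coordinates. Estimated counts were summed per gene, rounded and tested with edgeR 4.0.16 in R 4.3.3 (TMM, filterByExpr, quasi-likelihood F-test, Benjamini-Hochberg over all genes tested, FDR 0.1), with 1 fit for each pair of groups and 1 over all 12 libraries for the interaction. CPM values are per 1000000 of each library's gene total, in which 3 counts are 0.0922 to 0.667 CPM. Shares were compared by exact permutation tests (SciPy 1.17.1). Copies were genes with at least 50% of their 31-base words in a member.

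Named members were those with the smallest p in each comparison (up to 5 per direction among those past the FDR, otherwise 3), the 5 of highest mean TPM, members with textbook roles and paralogue pairs. The members, lists and rule were chosen with earlier results of these data known. Alternatives were DESeq2 1.42.0, limma-voom (limma 3.58.1), library totals, DESeq2 size factors, scaling to the members, no filter, a GC and length offset, copies pooled, a replicate block, 1 fit over all libraries, and leaving out libraries. The scripts were tested on simulated data. Some members and list genes that the rule names are not reported here.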

Additional observations from a re-analysis of the deposited data

Results flagged for a closer look

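In 3 of 13 measures the genotype difference at day 7 differed from that pre-transplant at an unadjusted p under 0.05, by exact permutation of the genotype labels within each stage (400 arrangements). The ratio of large to small subunit counts changed by 0.289 (exact permutation p = 0.01), the share of the library in large subunit genes by 2.93 percentage points (exact permutation p = 0.035), and the share in pseudogenes and other copies of the members by 0.619 percentage points (exact permutation p = 0.02). After adjustment over the 13 measures each p was 0.0975, and so was that of 5 others, the share of all members among them. On TPM, which is per length, the ratio of large to small subunit genes changed by 0.104 (exact permutation p = 0.11).

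The copies, which are not members themselves, held 1.13% ± 0.0805 (SD, n = 3) of counts in TCF-1 cKO day 7 libraries and 0.622% ± 0.306 in WT day 7 libraries. Before transplant they held 0.391% ± 0.131 in TCF-1 cKO and 0.506% ± 0.0955 in WT.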

How the results depend on the processing

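Pre-transplant, the count of members lower in TCF-1 cKO was 0 to 69 when 1 library was left out (0% to 8.91% of all genes). It was 74 without both WT library 2 and TCF-1 cKO library 3 (16.9% of all genes). At day 7, 3 higher and 5 lower became 6 and 3 in 1 fit over all 12 libraries (3.67% and 10.5% of all genes). They became 9 and 7 by DESeq2 (6.66% and 21.6%) and 7 and 6 by limma-voom (3.63% and 13.4%). No filter gave 0 and 5 (1.26% and 9.19%), the GC and length offset 3 and 1 (1.04% and 4.14%), and library totals 4 and 3 (3.09% and 10.8%). Leaving out 1 library gave 0 to 26 higher and 0 to 11 lower, where 0% to 9.72% and 0% to 19.4% of all genes were called. In WT, 52 that rose became 19 on library totals (4.27% of all genes). Scaled to the members, 7 rose (2.47%) and 13 were lower (53.3%). With 1 library left out 19 to 64 rose (3.68% to 13.4%). Without both WT pre-transplant library 2 and WT day 7 library 3, 1 was lower (10.3%). In TCF-1 cKO, 76 became 20 when scaled to the members (1.91% of all genes), with 18 lower (82.6%). With 1 library left out 71 to 81 rose (15.4% to 20.5%), and on library totals 1 was lower (57.2%). In the interaction DESeq2 gave 27 higher and 1 lower (4.59% and 3.37% of all genes), and scaling to the members gave 4 lower (8.63% of all genes). There, leaving out 1 library gave 0 to 29 higher (0% to 5.48% of all genes) and 0 to 1 lower (0% to 3.25%). The log2 ratio of the share ranged over the fits without 1 library from -0.78 to -0.18 pre-transplant, 0.27 to 0.59 at day 7, 0.58 to 0.93 in WT, 1.35 to 1.95 in TCF-1 cKO and 0.56 to 1.15 in the interaction. The causes were not tested.

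Libraries with the same replicate number did not deviate together in every pair, so the numbers were not taken as pairs. A replicate block gave 4 higher and 7 lower at day 7 (1.64% and 11.1% of all genes). With it 41 rose in WT (8.36%) and 77 in TCF-1 cKO (17.9%), and 0 members were called pre-transplant and in the interaction (0% of all genes). The block with the GC and length offset gave 0 higher and 0 lower at day 7, where 0.0125% and 0% of all genes were called, and 31 that rose in WT (10.1% of all genes). Depth limited Rpl39l, Rpl3l and Rpl10l, which were near 3 counts in many libraries.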
